A study of Mus musculus with 25 samples.

Results

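Immediate early genes were followed here in mouse hearts, through 10 members: Fos, Fosb, Jun, Junb, Egr1, Egr2, Atf3, Myc, Nr4a1 and Ier3. The members were found by gene symbol among the 56941 genes of the count table. All 10 were in the table, and all 10 were among the 17682 genes with enough reads for testing. RNA was sequenced from 25 hearts of 2 genotypes, wild type (WT) and MCT1KO. MCT1 is monocarboxylate transporter 1, the product of Slc16a1, a carrier of lactate and pyruvate. Within each genotype the hearts carried no pump (4 WT, 3 MCT1KO), a saline treatment (6 WT, 4 MCT1KO) or Ang/PE (3 WT, 5 MCT1KO), a pair of neurohormonal agonists given to produce cardiac hypertrophy. The labels used here give no promoter or cell type for the knockout, and no strain, age, sex, infusion length or chambers taken.

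Immediate early genes are transcribed within minutes of a stimulus from factors already present in the cell, such as SRF with its ELK and MRTF partners, CREB, and kinases of the MAPK cascades, and their mRNAs are short-lived. Most encode transcription factors that then act on later genes. In the heart they are known to respond to stretch, ischaemia, and adrenergic and angiotensin agonists.

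The libraries held between 12.2 M and 24.9 M counts, with between 8.87% and 18.4% on mitochondrial genes. The cardiomyocyte list (Myh6 among its 6 genes) summed to at least 31729 CPM (read counts scaled to a common library total) in every heart. Slc16a1 was not clearly lower in the hearts labelled MCT1KO: the log2 difference from WT was -0.02 ± 0.15 (SE) without a pump, -0.33 ± 0.13 with saline and -0.18 ± 0.15 with Ang/PE, with adjusted p of 0.976, 0.219 and 0.807 by edgeR's quasi-likelihood test. Genotype is therefore given below as labelled. Xist RNA, which marks female hearts, was present in 2 of 4 WT and 0 of 3 MCT1KO hearts without a pump, 1 of 6 WT and 3 of 4 MCT1KO hearts with saline, and 3 of 3 WT and 4 of 5 MCT1KO hearts with Ang/PE. The atrial muscle genes (Myl4, Myl7 and Sln) reached summed levels of 1136 CPM in WT saline and 3679 CPM in MCT1KO saline hearts. They were near 0 elsewhere, at 1.51 to 2.503 CPM in the hearts without a pump, with Sln at 0 in all 4 of WT, and at most 5.73 CPM in the Ang/PE hearts, so the hearts did not hold atrial RNA in like amounts. In bulk RNA, a change in the share of cells of a type cannot be told apart from a change of RNA per cell.

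For several of the 10 genes the highest levels were found in 4 of the 25 hearts: WT Ang/PE heart 3, MCT1KO Ang/PE hearts 1 and 2, and MCT1KO saline heart 4. Fos and Atf3 were above all of the other 21 hearts in each of the 4. Junb was so in 3 of them, Egr1, Myc and Nr4a1 in 2, and Fosb, Jun and Egr2 in 1, while Ier3 was so in 0. These hearts were picked out after their values were seen, so the contrast is a description and carries no test. MCT1KO Ang/PE heart 2 had the highest level of 6 of the 10 genes, and was among the 3 highest hearts for 9 of them.

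**Figure D1:**
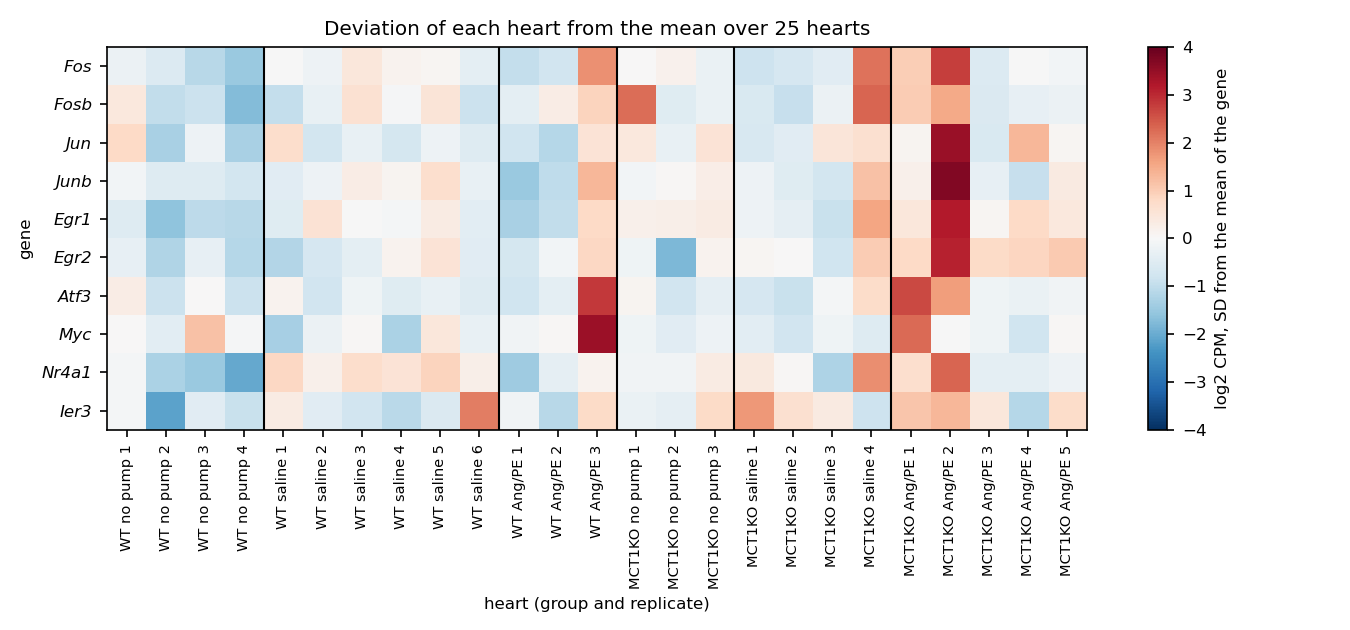
Each cell of the map is 1 gene in 1 heart, coloured by the distance of log2 CPM from the mean of that gene over the 25 hearts, in SD, and vertical lines part the 6 groups. The dark columns are WT Ang/PE 3, MCT1KO saline 4, MCT1KO Ang/PE 1 and MCT1KO Ang/PE 2, and the Myc and Atf3 rows peak in other hearts than the Egr1 and Junb rows.

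The SD of log2 CPM over the 25 hearts was 1.76 for Atf3, 1.57 for Egr2, 1.54 for Fos, 1.29 for Egr1 and 1.22 for Nr4a1. The median over all tested genes was 0.29, and each of these 5 genes lay at the 98.9th percentile or above. Ier3 was ordinary, with an SD of 0.29 at the 51.6th percentile. The share of this variation that lay between hearts of the same group had a median of 67.5% over all tested genes. It was below that for Egr2 (47.4%), Egr1 (56.9%) and Nr4a1 (59.1%), and from 73.4% (Myc) to 86.6% (Junb) for the other 7 members. Per kilobase of exon, the median level over the 25 hearts was highest for Jun (25.9 CPM per kb) and Ier3 (17.6), followed by Nr4a1 (10.1), Junb (7.25), Egr1 (5.64) and Atf3 (3.51). Myc (1.75) and Fos (1.68) were close to each other, and Egr2 (0.494) and Fosb (0.179) were lowest.

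**Figure D2:**
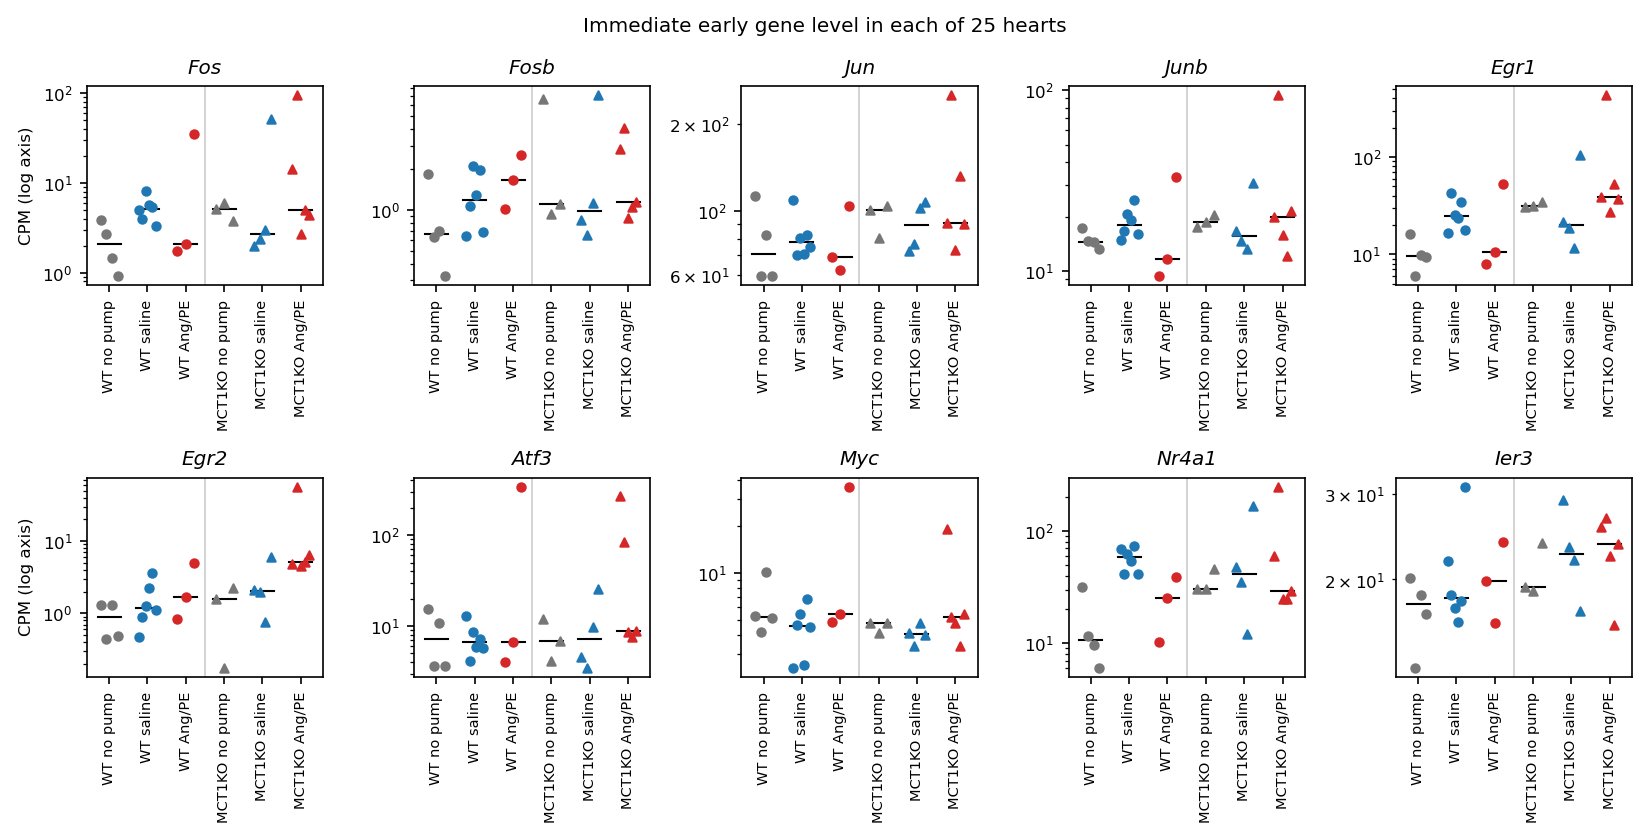
Each panel is 1 gene, with CPM on a log axis and 1 point per heart (circles WT, triangles labelled MCT1KO), and the bar is the group median. In most panels 1 or 2 points stand far above their own group, as for Atf3 at 342 CPM in WT Ang/PE and Egr1 at 432 CPM in MCT1KO Ang/PE.

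The FOS and JUN proteins pair through leucine zippers to form the AP-1 transcription factor. Fos (ENSMUSG00000021250) encodes its best-known inducible subunit. The 250 bases before the RefSeq start of Fos are shown because this promoter is the classic example of an inducible one, and Fos was among the genes that separated the 4 hearts. They lie on chromosome 12 at chr12:85473640-85473889, plus strand, in the GRCm38.p6 table, with matches to TGACG (the short form of the site bound by CREB and ATF factors) and to TATAAA (the TATA box) in capitals.
Fos: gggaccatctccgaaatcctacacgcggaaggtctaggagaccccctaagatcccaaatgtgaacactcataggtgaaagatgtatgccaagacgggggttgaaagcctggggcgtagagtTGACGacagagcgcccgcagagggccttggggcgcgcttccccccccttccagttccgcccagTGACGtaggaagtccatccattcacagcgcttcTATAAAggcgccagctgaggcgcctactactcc
The TGACG matches began 129 and 66 bases before the start, and TATAAA began 33 bases before it.

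Fos was low in hearts without a pump, at 3.84, 2.73, 1.45 and 0.911 CPM in WT and 5.10, 5.91 and 3.75 CPM in MCT1KO. The 6 WT saline hearts ran from 3.28 to 8.12 CPM (median 5.14), while the 4 MCT1KO saline hearts were at 2.01, 2.36, 3.00 and 51.1 CPM. The WT Ang/PE hearts were at 1.73, 2.10 and 34.9 CPM and the MCT1KO Ang/PE hearts at 14.2, 95.2, 2.71, 4.93 and 4.38 CPM. Thus the first 2 WT Ang/PE hearts lay below all 6 WT saline hearts and the third above them, and 4 of 5 MCT1KO Ang/PE hearts lay within the range of the MCT1KO saline hearts. Counts behind these values ran from 17 to 1363 reads.

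Junb, which encodes an AP-1 subunit that also restrains JUN, was even across most hearts. It lay between 13.2 and 17.3 CPM in WT and between 17.5 and 20.4 CPM in MCT1KO hearts without a pump, and between 14.9 and 24.6 CPM in WT saline hearts. The MCT1KO saline hearts were at 16.6, 14.7, 13.2 and 30.5 CPM. The WT Ang/PE hearts were at 9.36, 11.6 and 33.0 CPM, and the MCT1KO Ang/PE hearts at 20.02, 93.7, 15.8, 12.2 and 21.4 CPM. So the first 2 WT Ang/PE hearts held the lowest Junb levels of the series and the third held its second highest.

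Jun, the main partner of FOS, was the most abundant member, with an SD of log2 CPM of 0.44 at the 72.9th percentile of all genes. It ran from 59.2 to 113 CPM (median 70.9) in WT and 80.6 to 104 CPM (median 100.2) in MCT1KO hearts without a pump. With saline it ran from 70.3 to 108 CPM (median 77.7) in WT and 72.5 to 107 CPM (median 89.4) in MCT1KO. With Ang/PE it ran from 62.3 to 104 CPM (median 68.9) in WT and 73.1 to 252 CPM (median 90.8) in MCT1KO. The ranges of all 6 groups overlapped, and heart 2 of MCT1KO Ang/PE, at 252 CPM, stood above the 132 CPM of the next heart.

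Fosb, whose product can replace FOS in AP-1, was the scarcest member: its median was 1.12 CPM, with 6 to 137 reads per heart. Group medians lay between 0.666 CPM (WT without a pump) and 1.68 CPM (WT Ang/PE). The ranges were 0.322 to 1.85 CPM in WT and 0.937 to 6.72 CPM in MCT1KO without a pump, and 0.639 to 2.11 CPM in WT and 0.654 to 7.14 CPM in MCT1KO with saline. With Ang/PE they were 1.01 to 2.57 CPM in WT and 0.876 to 4.05 CPM in MCT1KO. The highest values were 7.14 CPM in MCT1KO saline heart 4 and 6.72 CPM in MCT1KO heart 1 without a pump, a heart in which Fos was at 5.10 CPM.

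EGR1 and EGR2 are zinc finger transcription factors induced mainly through SRF and ELK factors. Egr2 (ENSMUSG00000037868) is shown with 250 bases before 1 of its 5 RefSeq starts, since it was the 1 member called in the model of all 6 groups, a call lost without MCT1KO Ang/PE heart 2 (adjusted p = 0.0882 by edgeR). They lie at chr10:67537316-67537565, plus strand, in GRCm38.p6, and capitals mark the CArG box, the sequence bound by SRF, which began 72 bases before that start.
Egr2: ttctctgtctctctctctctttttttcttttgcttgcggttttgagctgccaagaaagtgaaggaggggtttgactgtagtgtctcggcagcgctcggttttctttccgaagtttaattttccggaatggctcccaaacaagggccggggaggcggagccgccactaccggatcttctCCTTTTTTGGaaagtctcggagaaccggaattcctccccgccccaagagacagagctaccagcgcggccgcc
A CArG box was found before 4 of the 5 starts of Egr2, whose windows in part overlap, and in 1.47% of all 32851 windows of this length in the table.

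Egr2 was scarce without a pump, at 1.31, 0.439, 1.30 and 0.483 CPM in WT hearts and 1.57, 0.176 and 2.23 CPM in MCT1KO hearts, the lowest resting on 3 reads. WT saline hearts ran from 0.465 to 3.57 CPM (median 1.19), and MCT1KO saline hearts were at 2.11, 1.96, 0.750 and 6.02 CPM. WT Ang/PE hearts were at 0.835, 1.68 and 4.93 CPM, and MCT1KO Ang/PE hearts at 4.75, 57.1, 4.54, 5.08 and 6.36 CPM. All 5 MCT1KO Ang/PE hearts were therefore high, above every heart without a pump and above 3 of the 4 MCT1KO saline hearts. Egr2 was also high in those MCT1KO Ang/PE hearts that did not stand apart for other members. By group median the order was MCT1KO Ang/PE, MCT1KO saline, WT Ang/PE, MCT1KO without a pump, WT saline and WT without a pump, and no 2 neighbours in it were separated by ranges that did not overlap.

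Egr1 was at 16.3, 5.94, 9.89 and 9.44 CPM in WT hearts without a pump and at 31.0, 31.4 and 34.1 CPM in the MCT1KO hearts without one, with no overlap. WT saline hearts ran from 16.5 to 42.7 CPM (median 24.5), and MCT1KO saline hearts were at 21.6, 18.7, 11.5 and 105 CPM. WT Ang/PE hearts were at 8.05, 10.6 and 52.7 CPM, and MCT1KO Ang/PE hearts at 38.9, 432, 27.5, 53.0 and 36.9 CPM. The widest spread inside a group was therefore in MCT1KO Ang/PE, where heart 2 lay at 432 CPM and the next heart at 53.0 CPM, and the first 2 WT Ang/PE hearts were at the level of WT hearts without a pump.

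Nr4a1 encodes an orphan nuclear receptor (NUR77) that is induced through CREB and MEF2 factors and takes part in metabolic gene control. Its promoter is shown because it held the most TGACG matches of the members. The window is chr15:101266596-101266845, plus strand, in GRCm38.p6. Capitals mark TGACG, here on the opposite strand and so printed as its reverse complement, and GCGNGGGCG (the site bound by EGR factors), also on the opposite strand.
Nr4a1: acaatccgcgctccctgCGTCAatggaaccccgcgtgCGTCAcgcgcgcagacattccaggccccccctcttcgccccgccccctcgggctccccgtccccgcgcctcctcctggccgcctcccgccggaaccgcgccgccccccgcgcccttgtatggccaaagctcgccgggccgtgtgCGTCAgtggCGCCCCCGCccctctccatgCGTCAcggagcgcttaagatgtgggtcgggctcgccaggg
TGACG matches began 233, 213, 69 and 40 bases before the start, and the EGR site 60 bases before it.

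Nr4a1 was at 31.9, 11.7, 9.69 and 6.06 CPM in WT hearts without a pump and at 30.3, 30.5 and 45.3 CPM in MCT1KO hearts without one. The WT saline hearts lay higher, from 40.9 to 73.7 CPM (median 58.1), with no overlap with WT hearts without a pump. MCT1KO saline hearts were at 47.3, 35.3, 11.997 and 167 CPM. WT Ang/PE hearts, at 10.3, 25.5 and 39.2 CPM, all lay below the WT saline hearts, and MCT1KO Ang/PE hearts were at 60.0, 246, 24.8, 24.7 and 29.1 CPM. Nr4a1 was thus high in the WT saline group and not in WT Ang/PE, including WT Ang/PE heart 3, in which Fos and Atf3 were high.

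Atf3 encodes a stress-induced transcription factor of the CREB/ATF family. It was at 15.4, 3.61, 10.9 and 3.59 CPM in WT and 11.9, 4.16 and 6.93 CPM in MCT1KO hearts without a pump. WT saline hearts ran from 4.08 to 12.8 CPM (median 6.59), and MCT1KO saline hearts were at 4.60, 3.47, 9.75 and 25.8 CPM. WT Ang/PE hearts were at 4.00, 6.64 and 342 CPM, and MCT1KO Ang/PE hearts at 268, 83.7, 8.68, 7.55 and 8.83 CPM. In each genotype the other Ang/PE hearts lay within the range of the hearts without a pump, so the group means of 118 ± 195 CPM (SD, n = 3) and 75.4 ± 113 CPM (SD, n = 5) describe few of the hearts.

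Myc encodes a transcription factor of growth and ribosome production. It followed Atf3 in the 2 hearts with the highest Atf3, at 36.2 CPM in WT Ang/PE heart 3 and 19.1 CPM in MCT1KO Ang/PE heart 1. The other 23 hearts lay between 2.44 and 10.2 CPM, and the group medians between 4.04 CPM (MCT1KO saline) and 5.45 CPM (WT Ang/PE). Ranges without a pump were 4.14 to 10.2 CPM in WT and 4.099 to 4.76 CPM in MCT1KO, and with saline 2.44 to 6.81 CPM in WT and 3.40 to 4.75 CPM in MCT1KO. With Ang/PE they were 4.83 to 36.2 CPM in WT and 3.36 to 19.1 CPM in MCT1KO. The other 23 hearts included MCT1KO Ang/PE heart 2 at 5.24 CPM and MCT1KO saline heart 4 at 3.95 CPM, in both of which Fos was higher than in WT Ang/PE heart 3. Ier3, which encodes a stress-induced regulator of survival and ERK signalling, lay between 13.2 and 31.1 CPM throughout, and its 2 highest hearts were WT saline heart 6 and MCT1KO saline heart 1. Its group medians were 17.8 CPM in WT and 19.3 CPM in MCT1KO without a pump, 18.3 and 22.6 CPM with saline, and 19.9 and 23.7 CPM with Ang/PE, and the ranges of all 6 groups overlapped.

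The marker sums did not move with the 4 hearts together. MCT1KO saline heart 4 held the highest atrial (3679 CPM), adipocyte (1069 CPM), mesothelial (85.8 CPM) and smooth muscle (1182 CPM) sums and the lowest cardiomyocyte sum (31729 CPM) of the 25 hearts. MCT1KO Ang/PE heart 2 held the highest erythroid sum (2540 CPM) and the lowest mitochondrial share (8.87%). MCT1KO Ang/PE heart 1 went the other way, with the lowest erythroid sum (340 CPM, against 352 to 1769 CPM in the 21 other hearts) and the lowest leukocyte sum (76.98 CPM, against 81.1 to 173 CPM). WT Ang/PE heart 3 lay within the range of those 21 hearts for all 9 marker sums. The leukocyte sums of WT Ang/PE heart 3, MCT1KO Ang/PE heart 2 and MCT1KO saline heart 4 (117, 139 and 119 CPM) also lay in that range. Of the single leukocyte markers, S100a8 was at 1.07 CPM in WT Ang/PE heart 3. It was at 0.640 and 1.47 CPM in MCT1KO Ang/PE hearts 1 and 2, against at most 0.585 CPM in the 21 other hearts. These levels are near the floor. S100a9, at 0.357, 0.183 and 1.54 CPM in the same hearts, reached 1.12 CPM in WT heart 2 without a pump. The 3 Ang/PE hearts had atrial sums of 1.72 to 5.73 CPM and adipocyte sums of 0.457 to 0.572 CPM. The part of these cell types in the levels of single hearts was not tested.

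RefSeq promoter windows were found for 8 of the 10 members. Egr1 and Myc had no entry. Within the 250 bases before the start, TGACG was present on either strand in 6 of the 8 (Fos, Fosb, Junb, Egr2, Atf3 and Nr4a1), against 17.8% of all 32851 windows. GCGNGGGCG was present in 2 (Fosb and Nr4a1), against 4.70%, and TATAAA in 1 (Fos), against 12.4%. TGACGTCA, the full site of CREB, which contains TGACG, and TGANTCA, the AP-1 site, were in 0 of the 8, against 1.55% and 6.75% of windows. A member was counted if any of its windows matched, and Egr2 had several, while the shares are of single windows, so counts and shares are not like measures. These matches are letters in a window and were not tested for binding.

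Whether any group differed from another was asked first, in 1 model of the 6 groups. Only Egr2 passed, with an adjusted p of 0.0159 (Benjamini-Hochberg over all genes, edgeR's quasi-likelihood test). Thus 1 of 10 members was called at an adjusted p below 0.05, against 8.34% of all genes, and 4 of 10 had an unadjusted p below 0.05, against 30.8% of all genes, so the members' shares were near the background. Atf3 (adjusted p = 0.0502), Egr1 (0.0641) and Myc (0.109) made up the other 3. The Egr2 call was lost without MCT1KO Ang/PE heart 2, at an adjusted p of 0.0882, with the 4 hearts set aside together, at 0.075, and with replicate number as a block, at 0.111. DESeq2 gave Egr2 no p-value in any comparison. It called Egr1 (0.00292), Atf3 (0.000552) and Myc (0.0314), 3 of 9 members with an adjusted p, against 20.6% of the genes that had one (DESeq2's shares below are of such genes).

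The effect of Ang/PE against saline was examined in each genotype. In WT hearts Atf3 and Myc had the largest differences, with log2 fold changes of 3.99 ± 1.17 (SE) and 1.81 ± 0.54, but adjusted p of 0.0918 and 0.0916. Both rested on heart 3, without which Atf3 was at -0.47 and Myc at 0.24, and the groups overlapped even with it. Of the 10 members 0 passed by edgeR, against 0.017% of all genes, and DESeq2 called 2, Atf3 (adjusted p = 0.0176) and Myc (0.0409), against 4.11%. At an unadjusted p below 0.05 there were 2 members, against 19.1% of genes. The groups differed in more than the agonists: atrial sums were 2.03 to 1136 CPM with saline and 1.72 to 1.97 CPM with Ang/PE, and Xist RNA was present in 1 of 6 and 3 of 3 hearts. With Xist as a covariate Atf3 was at 4.31 and Myc at 1.51, and with atrial and adipose covariates they were at 3.27 and 1.96. In both fits edgeR called 0 members, against 0% of all genes.

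The other 8 members in WT ran from -1.19 for Nr4a1 to 1.29 for Fos. Fos had an SE of 1.13, Fosb 0.42 ± 0.78, Egr2 0.62 ± 0.93, Egr1 -0.17 ± 0.86, Junb -0.06 ± 0.50, Jun -0.05 ± 0.30 and Ier3 -0.04 ± 0.20. Each of these intervals included 0. Nr4a1, at -1.19 ± 0.81, was the only member whose groups did not overlap, as 13.6% of all genes did not. Without heart 3 the values for Fos (-1.44) and Junb (-0.82) were below 0. The median over the 10 members was 0.19, beside -0.01 over all genes tested.

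For the MCT1KO label, the Ang/PE and saline hearts differed by 2.52 ± 0.85 for Egr2 and 2.78 ± 1.23 for Atf3, with adjusted p of 0.0935 and 0.204. Again 0 of 10 members passed by edgeR, against 4.46% of all genes, and 0 by DESeq2, against 6.93%. At an unadjusted p below 0.05 there were 2, against 20.4% of genes. Egr1 followed at 1.59 ± 0.82, Myc at 0.88 ± 0.56, Junb at 0.80 ± 0.48, Fos at 0.73 ± 1.06 and Jun at 0.51 ± 0.29. Nr4a1 (0.23 ± 0.72), Ier3 (0.0026 ± 0.18) and Fosb (-0.30 ± 0.71) lay near 0. The median was 0.77, beside -0.01 over all genes tested.

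Here the hearts that stood apart fell on both sides of the comparison. Without MCT1KO Ang/PE heart 2, Egr2 was at 0.93, Fos at -1.18 and Egr1 at -0.0078, while without MCT1KO saline heart 4 they were at 3.26, 3.31 and 2.77. Atf3 was at 1.30 without MCT1KO Ang/PE heart 1 and at 3.66 without MCT1KO saline heart 4. With all 4 hearts set aside, Egr2 was at 1.71 (adjusted p = 0.26), Atf3 at 0.49 and Junb at 0.15. Atrial sums reached 3679 CPM with saline and were 2.01 to 5.73 CPM with Ang/PE, and Xist RNA was present in 3 of 4 and 4 of 5 hearts. With atrial and adipose covariates Egr2 was at 4.69, Atf3 at 3.44, Egr1 at 3.46 and Fos at 3.79. With Xist as a covariate these were at 2.65, 2.95, 2.03 and 1.65. In both fits edgeR called 0 members, against 0.00566% and 3.55% of all genes.

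The interaction, which asks whether the Ang/PE effect differed between genotypes, gave values from -1.21 ± 1.63 for Atf3 to 1.90 ± 1.26 for Egr2. Of the 10 members 0 passed, against 0% of all genes, and 0 had an unadjusted p below 0.05, against 13.5%. DESeq2 called 0, against 0.12%. The 95% interval for Egr2 ran from -0.72 to 4.53 on the log2 scale.

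**Figure D3:**
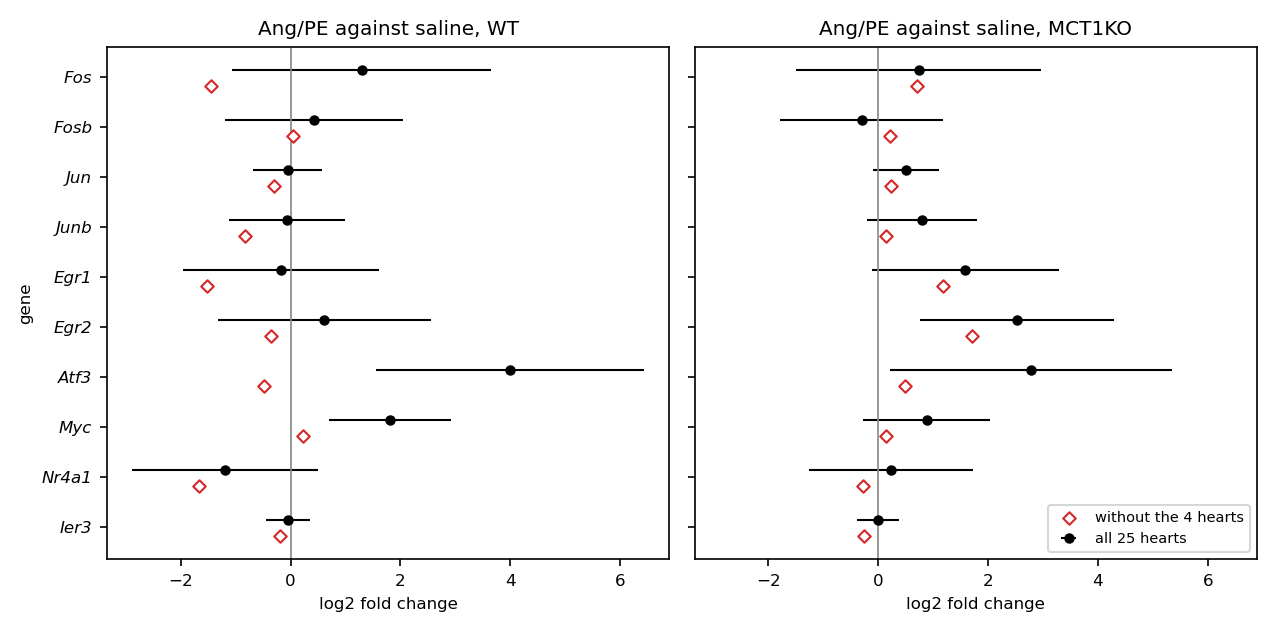
Black points are log2 fold changes of Ang/PE against saline for each gene from the model of 25 hearts, with 95% confidence intervals, in WT (left) and in hearts labelled MCT1KO (right), and red diamonds are the values with 4 hearts set aside, a choice made after seeing the data. In WT the Atf3 point moves from 3.99 to -0.48, and in MCT1KO the Egr2 point stays above 0 at 1.71.

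Saline against no pump compares pump-bearing hearts with hearts that had none. In WT, Nr4a1 had the largest value, 1.93 ± 0.75, with an adjusted p of 0.12. Egr1, at 1.36 ± 0.82, and Nr4a1 were the 2 members whose groups did not overlap, against 10.3% of all genes. By edgeR 0 members passed, against 6.61% of genes, with 1 at an unadjusted p below 0.05, against 24.3%. DESeq2 called 1, Nr4a1 (adjusted p = 0.0355), against 13.7%. The call depended on the model here. EdgeR called Nr4a1 without WT heart 1 with no pump, against 12.7% of genes. It called Fos, Egr1 and Nr4a1 when only these 2 groups were fitted, against 13.8% of genes. The same genes were called when the 4 hearts, none of them in these groups, were set aside, against 12.2%. Those 4 hearts were picked after their levels of the members were seen, so the calls made without them are a description and carry no test. WT saline hearts also differed from WT hearts without a pump in atrial sums, 2.03 to 1136 CPM against 1.51 to 1.95 CPM, and in Xist. With atrial and adipose covariates Nr4a1 was at 1.65 ± 0.84, and with Xist as a covariate at 1.68 ± 0.75. In both fits 0 members were called, against 0% and 3.27% of all genes.

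For the MCT1KO label, saline and no pump differed by values from -0.26 for Fosb to 1.58 for Fos. There, 0 members passed by edgeR, against 0.00566% of genes, and 0 by DESeq2, against 1.18%, and 0 had an unadjusted p below 0.05, against 12.1%. The interaction of genotype with the saline pump had 0 members called by either tool, against 0.00566% of genes by edgeR and 3.05% by DESeq2, and 0 at an unadjusted p below 0.05, against 17.2%.

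Against hearts with no pump, Ang/PE in WT gave 3.80 ± 1.34 for Atf3 and 1.32 ± 0.59 for Myc, with adjusted p of 0.454 and 0.511. These were the 2 members at an unadjusted p below 0.05, against 9.02% of genes, and 0 passed, against 0% of genes; DESeq2 called 0, against 0.24%. Without WT Ang/PE heart 3 they were at -0.66 and -0.25. In the hearts labelled MCT1KO, Egr2 was at 3.51 ± 1.01, with an adjusted p of 0.12 and groups that did not overlap, as in 8.45% of genes. Atf3 was at 3.28 ± 1.418 (adjusted p = 0.314). Egr2 was at 1.93 without MCT1KO Ang/PE heart 2, Atf3 was at 1.82 without MCT1KO Ang/PE heart 1, and with the 4 hearts set aside they were at 1.96 and 0.12. These were again 2 members at an unadjusted p below 0.05, against 13.1% of genes, and 0 passed by edgeR, against 0.503%, or by DESeq2, against 2.53%. These comparisons share their Ang/PE hearts with those against saline.

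Genotype was compared within each treatment. Without a pump, Egr1 was higher in every heart labelled MCT1KO than in any WT heart, at 32.2 ± 1.73 CPM (SD, n = 3) against 10.4 ± 4.31 CPM (SD, n = 4), and Junb likewise, at 18.8 ± 1.49 against 14.9 ± 1.70 CPM. These 2 members did not overlap between genotypes, against 11.5% of all genes, but their log2 differences of 1.63 ± 0.92 and 0.34 ± 0.54 had adjusted p of 0.488 and 0.853. Fosb, at 1.72 ± 0.81, was the 1 member with an unadjusted p below 0.05, against 12.2% of genes, and it rested on the single heart at 6.72 CPM, without which it was 0.22. By edgeR 0 members passed, against 0% of genes. DESeq2, which gave an adjusted p to 3 of the members, called 0, against 2.4%. None of the 3 MCT1KO hearts without a pump held Xist RNA, against 2 of 4 in WT. With Xist as a covariate 0 members were called, and its part in the result was not tested beyond that fit.

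With saline, 0 members passed, against 0% of all genes, and 0 had an unadjusted p below 0.05, against 17% of genes; DESeq2 called 0, against 0.799%. The log2 differences ran from -0.11 for Myc to 1.48 for Fos. With Ang/PE, Egr2 (2.67 ± 0.97), Egr1 (2.31 ± 0.95) and Jun (0.70 ± 0.32) had an unadjusted p below 0.05 and were higher in the hearts labelled MCT1KO, 3 of 10 members against 6.92% of genes. Their adjusted p were 0.692, 0.71 and 0.711, their groups overlapped, and 0 members passed by edgeR, against 0% of genes, or by DESeq2, against 0.0283%. All 3 values depended on single hearts. Without MCT1KO Ang/PE heart 2, Egr2 was at 1.09, Egr1 at 0.73 and Jun at 0.30, and without WT Ang/PE heart 3 they were at 3.64, 3.65 and 0.945. With the 4 hearts set aside, which takes hearts from both groups, they were at 2.09, 2.06 and 0.57.

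Across the 25 hearts 8 of the members, all but Myc and Ier3, were related to each other. These 8 were set apart after the correlations of all 45 pairs were seen, so the number of their pairs that passed is a description. Their 28 pairs had Pearson's r of log2 CPM between 0.45 (Atf3 and Nr4a1) and 0.86, all at an adjusted p below 0.05 over the 45 pairs of members (permutation test, two-sided). Spearman's rho lay between 0.37 and 0.81 and passed for 23 of the 28. Fos and Junb were closest, at r = 0.86 and rho = 0.81, with adjusted p of 7.5e-05 and 0.000225, and Fos was also related to Fosb (r = 0.76) and Atf3 (r = 0.75). Without the 2 hearts farthest from the median on the first gene of each pair, r for these 28 pairs lay between 0.31 and 0.77. As deviations from group means r lay between 0.47 and 0.89, with 23 of the 28 at an adjusted p below 0.05.

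Myc passed with 1 of the other 9 members, Atf3 (r = 0.75, adjusted p = 0.00284, rho = 0.39, adjusted p = 0.0838), and without the 2 farthest hearts r was 0.15, so this relation rests on those hearts. With Nr4a1 its r was -0.03. Ier3 was related to 0 of the other 9 members, with r between 0.02 and 0.35. Over all 45 pairs the median r was 0.58, rho had a median of 0.45, and 29 pairs passed for r and 23 for rho. The points share library preparation and, within groups, treatment.

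**Figure D4:**
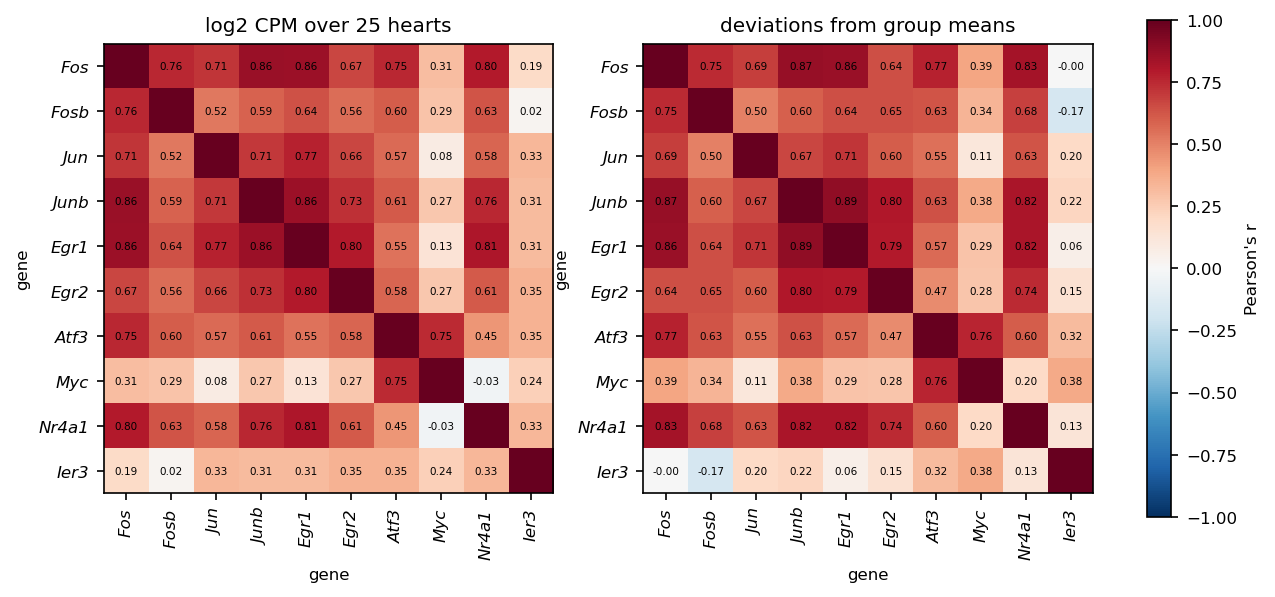
Pearson's r between each pair of genes over 25 hearts, on log2 CPM (left) and on deviations from the group means (right), from -1 (blue) to 1 (red). Fos, Fosb, Jun, Junb, Egr1, Egr2, Atf3 and Nr4a1 are red with each other, from 0.45 to 0.86 on the left, while the Myc row is pale except at Atf3 (0.75) and the Ier3 row is pale throughout.

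Other genes of the same response were then counted from 4 lists. Of 19 tested other transcription factors of the primary response, 2 rose and 0 fell in MCT1KO-labelled hearts given Ang/PE rather than saline, against 4.46% of all genes called. They were Nfil3, a bZIP repressor tied to the circadian clock (1.91 ± 0.53, adjusted p = 0.0423), and Mafk, a small MAF protein (0.61 ± 0.17, adjusted p = 0.0446). The list's median was 0.38, beside -0.01 over all genes. In WT 0 of the 19 were called by edgeR, against 0.017%, with a median of 0.39 and 9 at an unadjusted p below 0.05, against 19.1% of all genes. Maff, another small MAF, at 1.53 ± 0.39 (adjusted p = 0.0718), and Cebpb, a bZIP activator, at 0.85 ± 0.23 (0.0741), had the smallest p, and without 1 heart were at 1.10 or more and 0.77 or more. Nfil3 came next in WT, at 1.78 ± 0.50 (adjusted p = 0.0826), but was at 0.25 without WT Ang/PE heart 3.

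Of 18 tested rapidly induced effectors, 1 rose in the same MCT1KO comparison and 0 fell, against 4.46% of genes called. This was Thbs1, which encodes the matrix protein thrombospondin 1, at 162 ± 95.4 CPM (SD, n = 5) with Ang/PE against 25.7 ± 2.87 CPM (SD, n = 4) with saline, a log2 fold change of 2.66 ± 0.68 (adjusted p = 0.0301). In WT 0 of the 18 passed, against 0.017%, with 9 at an unadjusted p below 0.05, against 19.1% of genes. Among the 9 was Arc (3.02 ± 0.69, adjusted p = 0.0596), a cytoskeletal regulator, which rested on WT Ang/PE heart 3, at 73.5 CPM against 2.51 to 3.86 CPM in the WT saline hearts, and was at 0.17 without it. Among any of the 6 groups, 6 of 18 effectors differed, against 8.34% of all genes, led by Thbs1 (adjusted p = 0.00793). Not all of these calls held in edgeR's other fits. With the 4 hearts set aside Arc was at an adjusted p of 0.133 and Gadd45b at 0.0511. With replicate number as a block they were at 0.13 and 0.053. Thbs1 kept its call in both fits, at 0.0109 and 0.0464.

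Of 20 feedback inhibitors of the response, such as dual specificity phosphatases and Sprouty proteins, 0 were called by edgeR in the comparison of Ang/PE with saline in either genotype, with 4 at an unadjusted p below 0.05 in WT, against 19.1% of genes, and 5 in MCT1KO, against 20.4%, shares near the background. Over the 6 groups 1 of 20 was called, against 8.34% of genes: Nab2, a corepressor of EGR factors (adjusted p = 0.0239, and 0.0505 without MCT1KO Ang/PE heart 4). Of 16 upstream factors and kinases, 1 fell with Ang/PE in hearts labelled MCT1KO, against 4.46% of genes called, again near the background. This was Rps6ka5, the kinase MSK1 that acts on CREB and histone H3. It fell by 0.98 ± 0.20 on the log2 scale (adjusted p = 0.0131), from 24.4 ± 10.1 CPM (SD, n = 4) to 12.4 ± 1.54 CPM (SD, n = 5). In WT, Mapk8, the kinase JNK1, fell by 0.28 ± 0.08 on the log2 scale with saline against no pump (adjusted p = 0.0371), 1 of 16 against 6.61% of genes. Without MCT1KO saline heart 4, where Rps6ka5 was at 39.5 CPM, the adjusted p of Nfil3, Mafk, Thbs1 and Rps6ka5 became 0.18, 0.207, 0.127 and 0.0655. With the 4 hearts set aside they were 0.0188, 0.403, 0.0393 and 0.0407. Each of Nfil3, Mafk, Thbs1 and Mapk8 also lost its call without other single hearts, keeping it in 9, 11, 20 and 18 of 25 such fits.

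The genes most like the members were ranked by Pearson's r, over 25 hearts, with the mean of the members' z-scored log2 CPM, among 12806 genes. They were Btg2 (r = 0.92), an antiproliferative gene, Actg1 (0.87), which encodes gamma actin, Egr3 (0.87), Fosl2 (0.85) and Nr4a3 (0.85), which encode relatives of the members, Ccn1 (0.83) and Ccn2 (0.83), which encode matricellular proteins, and Dnajb1 (0.82), a heat shock cochaperone. These values describe likeness only. In WT Ang/PE heart 3, MCT1KO Ang/PE hearts 1 and 2 and MCT1KO saline heart 4, Btg2 was at 238, 147, 366 and 95.02 CPM, above the 90.7 CPM of the highest other heart. Nr4a3 was at 96.4, 152, 43.1 and 31.7 CPM in the same 4 hearts, against at most 19.5 CPM in the others, and like Atf3 it was highest in the first 2 of them.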

How the data were processed

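The authors deposited 1 table of raw counts per gene, with Ensembl identifiers and 1 column per library. Per the labels' protocols, total RNA was depleted of ribosomal RNA and made into stranded libraries. Per the submitters' processing notes, cutadapt 1.16, STAR 2.7.9a, featureCounts 1.6.3 and DESeq2 1.42.1 were used with build GRCm39; the annotation and the strand setting of the counting are not given in the sources used here, so reads of overlapping or antisense genes cannot be told apart. Columns were matched to samples by library identifier, and 0 were unmatched. The members and gene lists were chosen with earlier results of these data known. Members have their levels given in every group, and a log2 fold change where the unadjusted p was below 0.05 and, for Ang/PE against saline, throughout; of each other list at most the 3 genes of smallest p are named per comparison, and 1 of these genes is not reported here.

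Genes were filtered by group (edgeR 4.0.16, filterByExpr, R 4.3.3), which left 17682. TMM-scaled counts of 25 hearts were fitted in 1 model of 6 groups (19 residual degrees of freedom; robust glmQLFit, glmQLFTest, two-sided). P-values were Benjamini-Hochberg adjusted over all tested genes, with calls made below 0.05. CPM is the count scaled to the TMM-adjusted library total, in the usual unit; log2 CPM used a prior count of 2. SEs were derived from F. Totals of 12.2 M to 24.9 M counts per heart limit precision for genes of few reads, such as Egr2. On simulated data the scripts were tested for recovery of known changes. Replicate numbers showed no pairing of hearts on average: over 52 same-numbered pairs the mean correlation of deviations was 0.0094 (-0.23 to 0.40). Pairing of some hearts only was not tested. Libraries of the same group differed by more than counting noise in all 43 pairs. The closest pair, MCT1KO saline hearts 1 and 2, had a chi-square of 3.33 per degree of freedom, against a median of 23.0. Whether libraries of such a pair came from the same heart was not tested. Pairs from different groups were not checked. Correlations used 100000 permutations (scipy 1.17.1, numpy 2.4.6). Symbols came from a gene name table, exon lengths from GENCODE M21, and promoters from RefSeq (GRCm38.p6), not the authors' build. Alternatives were RLE scaling, DESeq2 1.42.0, no low-count filter, only the groups compared, a replicate block, a fit that was not robust, Xist, atrial and adipose covariates, removal of mitochondrial genes and each heart left out; setting aside the 4 hearts together was added after seeing the data.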

Additional observations from a re-analysis of the deposited data

Results flagged for a closer look

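Of 40 sets of hearts tested (10 genes in the 4 groups of 4 to 6 hearts), 6 held a heart far from the others by Dixon's test at the 95% level. Chance alone gives about 1 in 20, or 2. The 10 genes were measured in the same hearts and most vary together, so setting 6 against 2 is a description. Each of the 6 was the highest heart of its group. In MCT1KO saline, heart 4 stood apart for Fos, at 5.68 on the log2 CPM scale against 1.64 for the next heart. In MCT1KO Ang/PE, heart 2 stood apart for Junb (6.55 against 4.43), Egr1 (8.76 against 5.73) and Egr2 (5.84 against 2.696), and heart 1 for Myc (4.26 against 2.46). In WT saline, heart 1 stood apart for Jun, at 6.76 against 6.37, a smaller gap. The WT Ang/PE group, with 3 hearts, was too small for this test. Not every heart described in the report was singled out by it: Atf3 in MCT1KO Ang/PE was high in 2 hearts of 5.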

How the results depend on the processing

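With 3 to 6 hearts per group and 4 hearts far from the rest, few calls could be firm. Over the 6 groups edgeR called 1 member, against 8.34% of all genes. DESeq2 called 3, against 20.6% (it gave Egr2 no p-value), and the fit that was not robust 3, against 8.9%. Setting aside the 4 hearts gave 2 (Fos and Egr1), against 5.17%, and the fit with replicate number as a block 0, against 3.04%. Leaving out 1 heart gave 0 to 3, against 3.7% to 18.7% of genes. Without MCT1KO Ang/PE heart 2 it was 0, against 8.34%. For Ang/PE against saline in WT, DESeq2 called 2 members, against 4.11% of genes, and every other setting run 0, against 0% to 5.69%. For saline against no pump in WT, DESeq2 called 1, against 13.7% of genes, and fitting only the groups compared 3, against 13.8%. Setting aside the 4 hearts gave 3, against 12.2%, and leaving out 1 heart 0 to 1, against 0.341% to 12.7%. The 4 hearts were picked after their values were seen, so calls made without them are a description only. The other 9 comparisons had 0 members called under every setting run. The median correlation of members was 0.60 as deviations from group means, 0.58 with a prior count of 0.5 and 0.56 without MCT1KO saline heart 4. The replicate block changed no other call of a member. Of the named genes of other lists, it ended those of Nfil3 (adjusted p = 0.0726 by edgeR), Thbs1 (0.084) and Mapk8 (0.0785) in their pairwise comparisons. Over the 6 groups it ended those of Nfil3 (0.0783), Nab2 (0.0503), Arc (0.13) and Gadd45b (0.053).

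Several log2 fold changes changed sign. With the 4 hearts set aside, in WT Ang/PE against saline Fos was at -1.45, Egr2 at -0.36 and Atf3 at -0.48, and against no pump Atf3 was at -0.67 and Myc at -0.26. In MCT1KO, Fosb was then at 0.22, Nr4a1 at -0.27 and Ier3 at -0.26. With Xist as a covariate, WT gave Jun 0.0077, Junb 0.10 and Egr1 0.59, and MCT1KO gave Fosb 0.21. With atrial and adipose covariates, WT gave Junb 0.19 and Ier3 0.050, and MCT1KO gave Fosb 1.56 and Ier3 -0.10. Ier3 was at 0.032 in WT with the replicate block, and in MCT1KO at -0.012 with only the groups compared and -0.0045 without mitochondrial genes. The cause of these changes was not tested. Some of the values lay near 0, as for Ier3, and the 4 hearts had been picked after their values were seen.

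Leaving out 1 heart gave these ranges for WT Ang/PE against saline: Fos -1.44 to 1.82, Jun -0.30 to 0.087, Junb -0.82 to 0.26, Egr1 -1.50 to 0.24, Egr2 -0.35 to 1.05, Atf3 -0.47 to 4.56 and Ier3 -0.18 to 0.12. For MCT1KO they were Fos -1.18 to 3.31, Fosb -0.76 to 1.17, Junb -0.12 to 1.14, Egr1 -0.0078 to 2.77, Egr2 0.93 to 3.26, Atf3 1.30 to 3.66, Nr4a1 -0.93 to 1.28 and Ier3 -0.12 to 0.13. Against no pump in WT they were Atf3 -0.66 to 4.37 and Myc -0.25 to 1.75. The lowest values came without WT Ang/PE heart 3 or MCT1KO Ang/PE heart 2, except in MCT1KO for Atf3 (without MCT1KO Ang/PE heart 1) and Ier3 (without MCT1KO saline heart 4).

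Counts over all genes also moved with the processing. Genes called over the 6 groups were 1474, from 272 with atrial and adipose covariates to 3487 with DESeq2. For Ang/PE against saline they were 3 in WT, from 0 to 945 (only the groups compared), and 788 in MCT1KO, from 1 (only the groups compared) to 1224 (DESeq2), and 39 without MCT1KO saline heart 4. For saline against no pump they were 1168 in WT, from 0 to 2287, and 1 in MCT1KO, up to 209 with DESeq2 and 626 without MCT1KO saline heart 3. DESeq2 called 403 genes where edgeR called 89 (Ang/PE against no pump in MCT1KO), and 371 where it called 1 (the saline pump interaction). Without 1 heart these counts ran from 652 to 3308 over the 6 groups, 1 to 316 and 39 to 1541 for Ang/PE against saline in WT and MCT1KO, 60 to 2234 for saline against no pump in WT, 1 to 226 for Ang/PE against no pump in MCT1KO, 0 to 250 for genotype with saline and 0 to 663 for the saline pump interaction. Where edgeR called 0, DESeq2 called 35 (Ang/PE against no pump in WT), 87, 141 and 5 (genotype without a pump, with saline and with Ang/PE) and 13 (the Ang/PE interaction).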

Other observations

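The HSP70 genes were highest in the same hearts as Atf3. Hspa1b and Hspa1a, near-identical genes for the inducible chaperone HSP70 among which reads may be split, were at 304 and 349 CPM in WT Ang/PE heart 3, and at 280 and 306 CPM in MCT1KO Ang/PE heart 1. In MCT1KO Ang/PE heart 2 they were at 58.2 and 68.8 CPM and in MCT1KO saline heart 4 at 10.1 and 11.03 CPM. The other 21 hearts lay between 0.916 and 8.22 CPM for Hspa1b and between 0.731 and 8.10 CPM for Hspa1a. Dnajb1, which encodes a cochaperone of HSP70, had another order, at 106, 40.1, 76.4 and 33.7 CPM in WT Ang/PE heart 3, MCT1KO Ang/PE hearts 1 and 2 and MCT1KO saline heart 4, against at most 27.4 CPM in the other 21. Over 25 hearts Pearson's r with Atf3 was 0.96 for Hspa1b and 0.95 for Hspa1a. The ranking of genes by likeness to Atf3, Egr1 and Egr2 was chosen after their values were seen and is a description only.

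Other genes, also picked after their values were seen, had the same 2 hearts on top. Otud1, which encodes a deubiquitinase, was at 566 and 398 CPM in WT Ang/PE heart 3 and MCT1KO Ang/PE heart 1, against at most 50.9 CPM in the other 21 hearts. Hbegf, which encodes an EGF receptor ligand, was at 211 and 172 CPM against at most 29.8 CPM. In MCT1KO saline heart 4, where Fos and Nr4a1 were high, Otud1 (23.6 CPM) was within the range of the other 21 hearts and Hbegf (6.19 CPM) below it.

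The gene closest to Egr1 was Egr3, a related zinc finger factor (r = 0.93), at 22.5 CPM in MCT1KO Ang/PE heart 2 and 10.97 CPM in MCT1KO saline heart 4, against at most 4.23 CPM in the other 21 hearts. The gene closest to Egr2 was F2r, which encodes the thrombin receptor PAR1 (r = 0.88), followed by Nsmf and Cnn2 (both 0.87). F2r was at 61.0 CPM in MCT1KO Ang/PE heart 2 and did not exceed the 62.8 CPM of the highest other heart.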
